A study of Homo sapiens with 12 samples.

Results

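The genes described here are the receptors and first adaptors through which growth factors reach the mTOR pathway. They are the receptor tyrosine kinases EGFR, ERBB2, ERBB3, MET, AXL, IGF1R and INSR, the insulin receptor substrates IRS1 and IRS2, and the adaptor GRB2. They were picked by gene name, and the rule itself uses no measured value, though earlier results of these data were known. They make up 10 of the 20212 genes of the count table. The study asked which mRNAs change their translation when mTOR is inhibited. PANC-1, an established cell line from a human pancreatic duct carcinoma, was given the solvent DMSO in 3 cultures, or rapamycin at 50 nM for 1 h in another 3. Ribosome footprints (RF, the mRNA fragments covered by ribosomes) and total RNA were sequenced from each culture, which gave 12 libraries. RF and total RNA libraries whose labels share a treatment and number were taken as from 1 culture. All values therefore describe 1 cell line, 1 dose and 1 time. Nothing in the labels says how far the cultures were independent, so p-values measure only the spread between these cultures, which may be technical.

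Receptor tyrosine kinases bind a growth factor outside the cell and phosphorylate themselves and their substrates inside it. IRS proteins, docked on the insulin and IGF1 receptors, recruit PI3K and so lead to AKT and mTOR complex 1, and GRB2 recruits SOS, which activates RAS. Rapamycin binds FKBP12 and inhibits mTOR complex 1. Active mTOR complex 1 and S6 kinase phosphorylate IRS1, and the complex also acts on GRB10, so that its inhibition is known to relieve a brake on these receptors. mRNAs that begin with a C followed by a run of pyrimidines, the TOP motif, are the best known class whose translation depends on this complex.

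The first 20 bases of the most abundant coding isoform are shown for the 4 genes with the most total RNA, since a TOP motif would stand there. The isoform was the one with the highest mean FPKM among the coding isoforms that the annotation could match, and its start is the annotated one (GENCODE on GRCh37), not a mapped start in PANC-1. Capitals mark the first 5 bases, the window searched for a C followed by 4 bases that are each C or T.
GRB2-202, chr17:73401740-73401759, minus strand: AGCCAggaggtattgctgct
MET-202, chr7:116312250-116312269, plus strand: AGACAcgtgctggggcgggc
EGFR-201, chr7:55086710-55086729, plus strand: AGACGtccgggcagcccccg
AXL-201, chr19:41725128-41725147, plus strand: GAGAAggcggctgctgggca
None of these 4 starts held the motif, nor did those of the other 5 genes tested. Among the 12822 tested genes with such an isoform, 539 held it, or 4.2%. For GRB2 the isoform searched, GRB2-202, held only 24.5 to 34.7% of the isoform FPKM. GRB2-205 and GRB2-210 start elsewhere, at 73389945 and 73390114, and were not searched. For ERBB3 the isoform searched, ERBB3-202, had a mean of 0.0755 FPKM and a share of 0 to 33.9% over libraries. It has 549 coding bp, against 4350 for the gene. Its first 5 bases, TCCCC, are all pyrimidines but do not begin with C. For ERBB2 and IGF1R the isoform used begins with the bases ATG. That of IGF1R is coding over all its 572 bp, against 4101 coding bp for the gene. It starts at 99251060, inside a gene that starts at 99191768. The window of these 2 genes therefore says nothing of the mRNA's true end.

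Total RNA libraries held 78081241 to 94293744 counts and RF libraries 278835 to 1574723. At 3 counts, the detection limit was 2.04 to 9.98 CPM (counts scaled to library size) in RF and at most 0.0388 CPM in total RNA, and limits and intervals from counts cover counting error only. The libraries of DMSO cultures 1 and 2 detected 16840 and 16858 genes in total RNA, against 19751 to 19847 in the other 4. All 7 ductal epithelial markers had a mean of at least 1 FPKM, led by the keratins KRT8, KRT18 and KRT19. None of 3 acinar and 2 islet markers, and not the 1 endothelial marker measured, reached 1 FPKM, so at that low bar the labelled cell type was borne out by its markers. Of 3 immune markers only CD68 (69.0 to 88.3 FPKM) and of 3 fibroblast markers only COL1A1 reached 1 FPKM.

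In DMSO, the total RNA level, given in FPKM and so scaled for transcript length, covered a wide range. AXL, the receptor for GAS6, was highest at 85.2 ± 1.61 FPKM (SD, n = 3). MET, the receptor for HGF, was at 80.4 ± 2.2 and GRB2 at 74.4 ± 1.41 FPKM. EGFR, the receptor for EGF and its relatives, was at 43.04 ± 2.76 FPKM. IGF1R, which binds IGF1 and IGF2, was at 15.1 ± 0.527 FPKM, and ERBB2, the EGFR relative with no known ligand, was at 10.9 ± 0.683. The substrates lay lower, IRS1 at 7.95 ± 0.142 FPKM and IRS2 at 1.14 ± 0.0527. The insulin receptor gene INSR (0.481 ± 0.137 FPKM) and ERBB3, the neuregulin receptor whose own kinase is weak (0.417 ± 0.186), closed the order. All neighbours in this order were separated in their 3 DMSO values except INSR and ERBB3, whose ranges overlapped. The median of all tested genes was 11.1 FPKM.

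The RF order was less sharp. Per kilobase of exon length, AXL had 23.2 ± 9.71 RF CPM (SD, n = 3), MET 20.7 ± 3.27, EGFR 16.1 ± 5.33, GRB2 9.10 ± 1.90 and ERBB2 5.06 ± 3.31. IRS2 (2.97 ± 2.16), IRS1 (2.19 ± 2.03) and IGF1R (1.92 ± 1.36) followed, and each neighbouring pair from AXL to IGF1R overlapped in range. Footprints lie mostly on coding sequence, and scaling to coding length changed the rank of 7 of the 10 genes. Per kilobase of coding length, EGFR had 64.0 ± 21.2 RF CPM (SD, n = 3), GRB2 63.0 ± 13.2, AXL 44.5 ± 18.6 and MET 34.3 ± 5.43. The ranges of each neighbouring pair among these 4 overlapped, and all 4 lay above ERBB2 (13.2 ± 8.63), whose range did not reach that of MET. IGF1R (6.53 ± 4.63), IRS2 (6.03 ± 4.39) and IRS1 (5.90 ± 5.46) overlapped one another. ERBB3 had 0.436 ± 0.235 RF CPM per coding kilobase, from 1, 1 and 2 reads. The median of the 13029 tested genes with a coding length was 10.5.

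**Figure D1:**
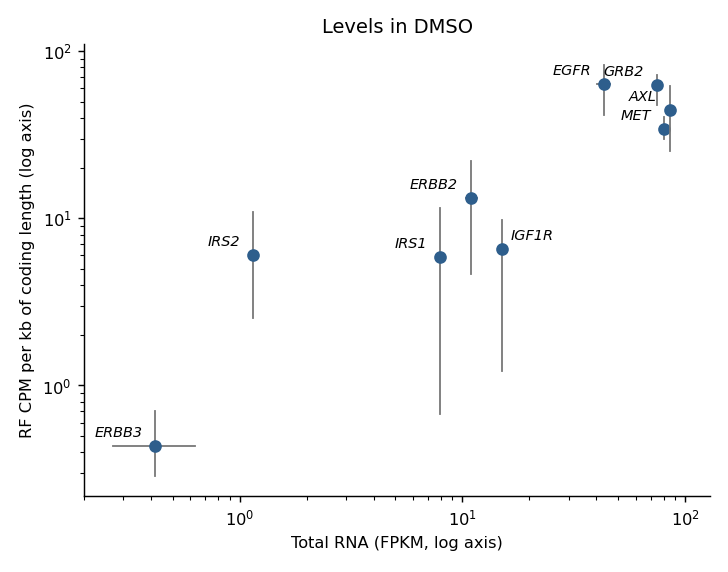
Total RNA level (FPKM, log axis) against RF level (CPM per kilobase of coding length, log axis) of 9 genes in DMSO. Points are means of 3 cultures and lines run from the lowest to the highest culture. IRS2 stands at 1.14 FPKM of total RNA yet beside IRS1 and IGF1R in RF, while EGFR, GRB2, AXL and MET share the top of the RF axis.

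RF over total RNA therefore differed between the abundant receptors. RF CPM per coding kilobase divided by FPKM was 1.504 ± 0.538 for EGFR in DMSO, against 0.426 ± 0.0609 for MET and 0.524 ± 0.226 for AXL (SD, n = 3). The lowest EGFR culture (0.902) stood above the highest MET (0.489) and AXL (0.746) cultures. GRB2 was between them at 0.845 ± 0.165. IRS2 had the highest ratio of those with over 4 RF reads in DMSO, 5.30 ± 3.94, with a range from 2.31 to 9.77. On the scale used for the rapamycin comparison, log2 of RF CPM over RNA CPM (log2 TE), MET (−1.82 ± 0.22), AXL (−1.93 ± 0.68), IGF1R (−1.84 ± 1.42) and IRS1 (−2.06 ± 1.61) lay between the 11.1th and 15.6th percentile of tested genes. On that scale EGFR (−1.40 to −0.39) and AXL (−2.66 to −1.33) overlapped, so their separation did not hold on it. The median gene was at −0.53. Coding sequence made up 60.3% of the annotated exon length of MET and 52.2% of that of AXL, against 14.4% for GRB2, 25.2% for EGFR and a median of 31.5%, and its part in these ratios was not tested. ERBB3 and INSR had too few RF reads for a ratio.

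Replicate error was far larger in RF than in total RNA. The biological coefficient of variation over all genes was 54.9% in RF and 5.31% in total RNA. In DMSO the highest RF CPM of MET was 1.36 times the lowest, and that of GRB2 1.51 times. For EGFR the factor was 2.01, for AXL 2.47, for IRS2 4.32, for ERBB2 4.70, for IGF1R 7.96 and for IRS1 17.1. The median was 2.45 over the 10162 tested genes with reads in every DMSO RF library. In total RNA the same factor was 1.02 to 1.10 for these 8 genes. Single RF libraries set the widest spreads. DMSO culture 2 held 4 IGF1R reads (5.03 CPM, exact Poisson 95% interval 1.37 to 12.9) and 2 IRS1 reads (2.51 CPM, 0.304 to 9.08), the lowest of all 6 cultures for both genes. The same library was the highest of the 6 for EGFR, ERBB2 and IRS2.

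**Figure D2:**
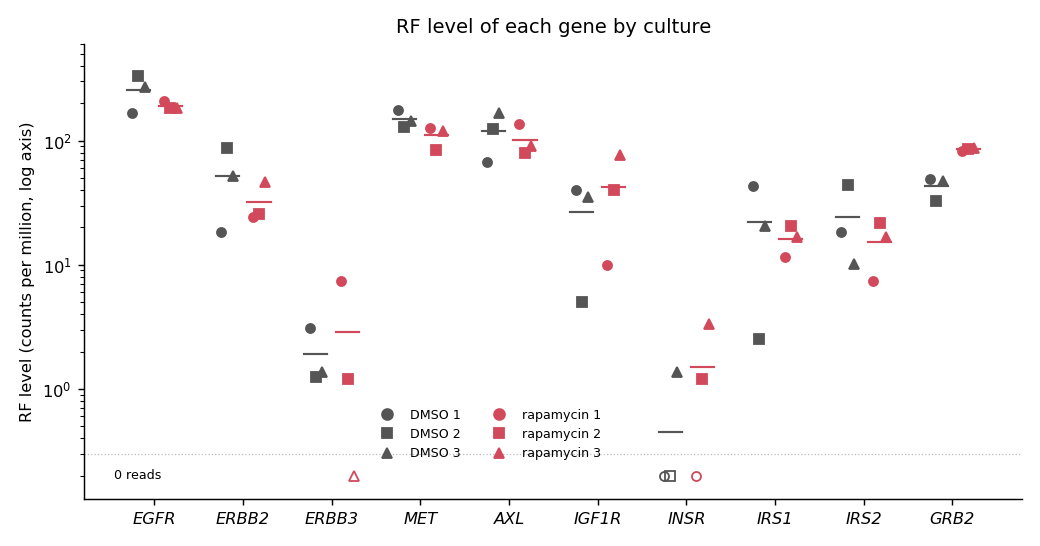
RF level (CPM, log axis) of each gene in each of the 6 cultures. Horizontal lines are means of 3 cultures and open symbols below the dotted line mark libraries with 0 reads. GRB2 sits higher in the 3 rapamycin cultures than in the 3 DMSO cultures and MET lower, and in the other 8 genes the groups overlap.

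After rapamycin, no gene of the family passed the test at an adjusted p of 0.05 for TE, RF or total RNA (edgeR, quasi-likelihood F test, Benjamini-Hochberg adjustment over 13329 genes). That held for the whole table: 0% of tested genes were called for TE, 0% for RF and 0% for total RNA. The tests covered 9 of the 10 genes, since INSR had 4 RF reads in all, under the minimum of 10. The TE change was the RF change beyond that of total RNA, fitted as an interaction term. Fitted TE was lower after rapamycin for 6 of the 9 genes and higher for 3, where 53.7% of all tested genes were lower. The median log2 fold change was −0.26 against −0.06 over all tested genes. At an unadjusted p of 0.05, 1 of 9 was higher (GRB2) and 0 were lower, against a background of 6.17% of genes higher and 6.42% lower. The number of the 9 at that level moved with the setting. It was 1 without DMSO culture 2, 2 with at least 50 counts, 3 without DMSO culture 1 and 4 with DESeq2's Wald test. Without DMSO culture 1 the added genes were EGFR and ERBB2, both lower. With 1 common scaling of all 12 libraries they were EGFR and MET, both lower. Shares of all genes in these settings are not given here. With DESeq2's Wald test, 1 of the 9 was called higher (GRB2) and 1 lower (MET) at an adjusted p of 0.05, against 5.02% higher and 4.4% lower over all genes. In RF alone DESeq2 called 0 of the 9. The groups' log2 TE values did not overlap for 1 gene upward (GRB2) and 1 downward (MET), against 4.8% and 6.19% of tested genes. In these bulk lysates, fewer cells and less RNA per cell cannot be told apart, and a CPM is a share of its library.

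GRB2 was the gene with the clearest difference. Its RF counts were 16, 26 and 69 in DMSO cultures 1 to 3 and 99, 71 and 26 in rapamycin cultures 1 to 3. Scaled to library size these were 49.2, 32.7 and 46.9 CPM in DMSO and 82.1, 85.9 and 86.5 CPM in rapamycin. All 3 rapamycin cultures stood above all 3 DMSO cultures, and they lay within a factor of 1.05 of one another. Counting error was wider than that factor. The exact Poisson 95% interval was 56.5 to 127 CPM for rapamycin culture 3 and 28.1 to 79.9 CPM for DMSO culture 1. Mean RF was 1.98 times as high in rapamycin (84.8 ± 2.40 against 42.9 ± 8.95 CPM, SD, n = 3). Total RNA was 100.8, 108 and 108 CPM in DMSO and 111, 98.9 and 106 CPM in rapamycin, with overlapping groups. The log2 TE was −0.96, −1.63 and −1.14 in DMSO and −0.39, −0.16 and −0.25 in rapamycin. These groups did not overlap either, and an exact permutation test gave p = 0.1, the smallest that 3 against 3 allows. The fitted TE change was 1.004 on the log2 scale (SE 0.28, 95% interval 0.41 to 1.60), with an adjusted p of 0.231 by edgeR. DESeq2 gave 0.99 (SE 0.20) with an adjusted p of 0.000133, and over all 15 alternatives the adjusted p ran from 0.000133 to 1. For RF alone DESeq2 gave an SE of 0.45 and an adjusted p of 0.9999. With a separate variance for RF and total RNA (limma voom) the SE was 0.45, the 95% interval 0.07 to 1.94 and the adjusted p 0.675. The direction was upward in all 15, and the fitted change stayed between 0.82 and 1.11 when 1 culture at a time was left out. Without the RNA libraries of DMSO cultures 1 and 2, which detected fewer genes, it was 1.04.

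MET differed in the other direction, and less. Its RF counts were 57, 103 and 210 in DMSO and 152, 70 and 36 in rapamycin. As CPM these were 175, 129 and 143 against 126, 84.7 and 120. The groups did not overlap, but the highest rapamycin culture and the lowest DMSO culture were only 126 and 129 CPM. Mean RF was 149 ± 23.6 CPM in DMSO and 110 ± 22.3 CPM in rapamycin (SD, n = 3). Total RNA was the steadiest of the family, at 524 to 536 CPM in DMSO and 529 to 538 CPM in rapamycin. The log2 TE was −1.59, −2.02 and −1.85 in DMSO and −2.05, −2.63 and −2.11 in rapamycin, with p = 0.1 by the exact permutation test. The fitted TE change was −0.43 (SE 0.22, 95% interval −0.89 to 0.04, adjusted p = 0.435, edgeR). DESeq2 called it at −0.37 (SE 0.12, adjusted p = 0.0257), and the adjusted p over the 15 alternatives ran up to 1. For RF alone DESeq2 gave an SE of 0.37 and an adjusted p of 0.9999. Leaving out 1 culture gave −0.58 to −0.25, with the weakest value without rapamycin culture 2, and −0.45 without the RNA libraries of DMSO cultures 1 and 2.

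**Figure D3:**
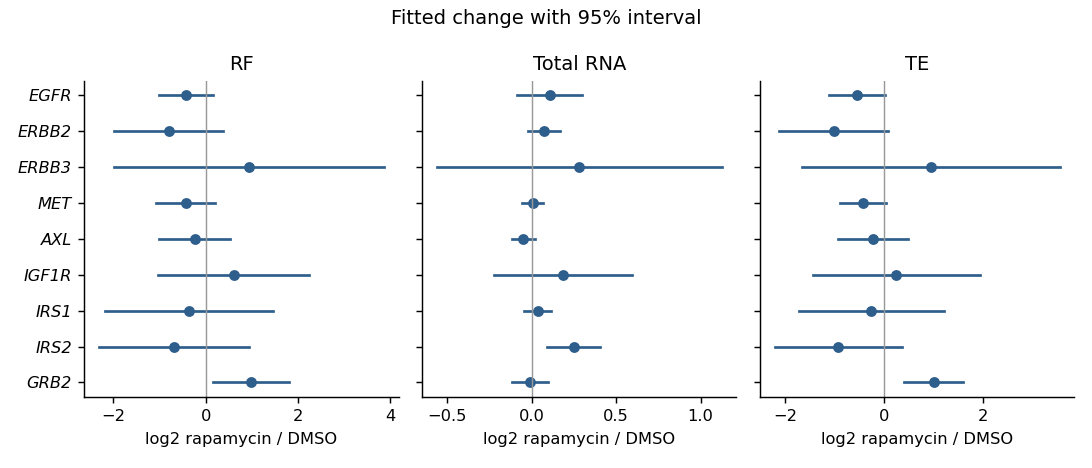
Fitted log2 ratio of rapamycin over DMSO with its 95% interval, for RF, total RNA and TE, in 9 genes (edgeR, 3 cultures per treatment, axes differ). The TE interval lies wholly above 0 for GRB2 and includes 0 for the other 8 genes, and the total RNA interval lies wholly above 0 for IRS2.

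EGFR and ERBB2, which pair with each other at the membrane, both had lower fitted TE without passing the test. EGFR had 54, 266 and 398 RF reads in DMSO and 251, 152 and 55 in rapamycin, or 166, 334 and 270 CPM against 208, 184 and 183 CPM. DMSO culture 1 was the lowest of the 6, so the groups overlapped, and the rapamycin cultures lay within a factor of 1.14. For rapamycin culture 3 the exact Poisson 95% interval was 138 to 238 CPM. The fitted TE change of EGFR was −0.55 (SE 0.27, 95% interval −1.12 to 0.02, adjusted p = 0.416, edgeR), and −0.77 to −0.36 with 1 culture left out. With a separate variance for RF and total RNA (limma voom) its SE was 0.53 and the 95% interval −1.71 to 0.63. ERBB2 had 6, 69 and 76 RF reads in DMSO and 29, 21 and 14 in rapamycin, which is 18.5, 86.7 and 51.6 CPM against 24.0, 25.4 and 46.6 CPM. Here too DMSO culture 1 was the lowest. The ERBB2 TE change was −1.02 (SE 0.52, 95% interval −2.12 to 0.09, adjusted p = 0.435), with an SE of 0.53 by limma voom. Of its annotated exon bases, 6.93% are shared with the counted neighbours MIEN1 and PGAP3, so some of its reads are uncertain. Both genes had a negative TE change under all 15 alternatives. ERBB3, with 1, 1 and 2 RF reads in DMSO and 9, 1 and 0 in rapamycin, had a TE change of 0.95 with a 95% interval from −1.66 to 3.56, so no difference was detectable at this depth. Without rapamycin culture 1 it was −1.27.

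AXL showed no difference beyond its spread. It had 22, 98 and 246 RF reads in DMSO and 164, 66 and 27 in rapamycin, or 67.7, 123 and 167 CPM against 136, 79.9 and 89.8 CPM. DMSO cultures 1 and 3 were the lowest and highest of all 6. The TE change was −0.22 (SE 0.33, 95% interval −0.93 to 0.49, adjusted p = 0.828, edgeR) and turned to 0.12 without DMSO culture 3. In total RNA its change was −0.05 (95% interval −0.12 to 0.02), with values of 425 to 443 CPM in DMSO and 413 to 426 CPM in rapamycin.

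No direction could be given for the IGF1 and insulin receptors. IGF1R had 13, 4 and 52 RF reads in DMSO and 12, 33 and 23 in rapamycin, which is 40.0, 5.03 and 35.3 CPM against 9.95, 39.9 and 76.5 CPM. The lowest and the highest culture were in different groups, but each group spanned at least 7.69-fold. This spread was beyond counting error: in rapamycin the exact Poisson 95% intervals of cultures 1 and 3 were 5.14 to 17.4 and 48.5 to 115 CPM. Its fitted TE change of 0.25 had a 95% interval from −1.44 to 1.94 (adjusted p = 0.924, edgeR), and was −0.42 without DMSO culture 2 and −0.41 without rapamycin culture 3. INSR had 0, 0 and 2 RF reads in DMSO and 0, 1 and 1 in rapamycin, all within the 3 counts of the detection limit, so no fold is given. Its total RNA was also low, at 2.63, 2.72 and 3.25 CPM in DMSO and 3.52, 3.32 and 3.91 CPM in rapamycin. These groups did not overlap, but the gene was not tested since the count minimum applied to both library types. In FPKM they overlapped, at 0.323 to 0.567 in DMSO and 0.510 to 0.648 in rapamycin. The lowest CPM values were from DMSO cultures 1 and 2, whose RNA libraries detected fewer genes.

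The substrates IRS1 and IRS2 were not called either. IRS1 had 14, 2 and 30 RF reads in DMSO and 14, 17 and 5 in rapamycin, or 43.1, 2.51 and 20.4 CPM against 11.6, 20.6 and 16.6 CPM. The rapamycin cultures lay inside the DMSO range. Its TE change was −0.26 (95% interval −1.72 to 1.21, adjusted p = 0.907, edgeR) and turned to 0.25 without DMSO culture 1. IRS2 had 6, 35 and 15 RF reads in DMSO and 9, 18 and 5 in rapamycin, or 18.5, 43.98 and 10.2 CPM against 7.46, 21.8 and 16.6 CPM, again overlapping. The IRS2 TE change was −0.92 (SE 0.60, 95% interval −2.21 to 0.37, adjusted p = 0.559), and only −0.01 without DMSO culture 2, its highest RF library.

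**Figure D4:**
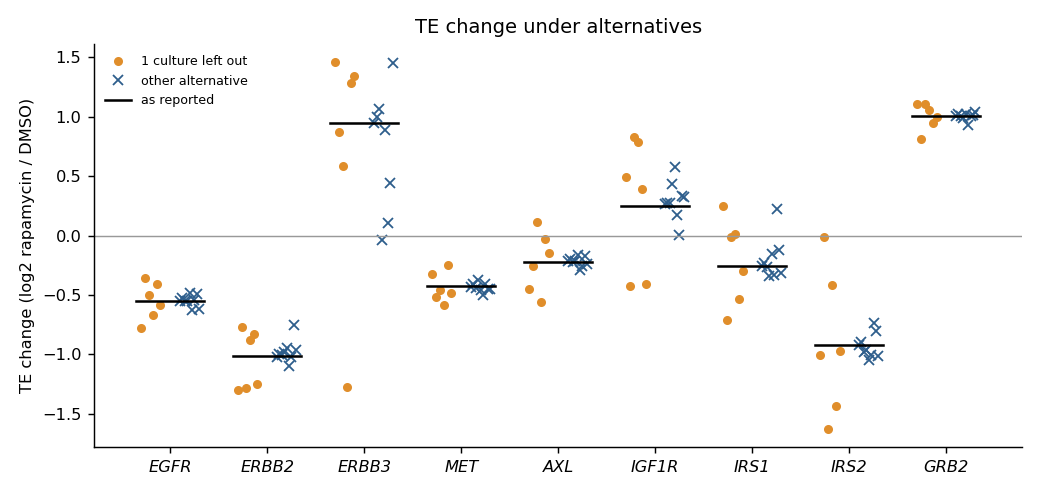
Fitted TE change (log2 rapamycin over DMSO) of 9 genes. Black lines are the values reported, circles leave out 1 culture each, and crosses are the other alternatives in scaling, count filter, test or blocking. GRB2 stays between 0.82 and 1.11 with any culture left out, EGFR, ERBB2, MET and IRS2 stay below 0, and ERBB3, AXL, IGF1R and IRS1 have values on both sides of 0.

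Taken alone, RF gave the same 6 genes below 0 and 3 above, where 48.7% of all tested genes were below 0. The median log2 fold change was −0.36 against 0.02 over all tested genes. GRB2 was again the one with an unadjusted p under 0.05 (log2 fold change 0.99, SE 0.39, adjusted p = 0.9999, edgeR), so 1 of 9 was higher and 0 were lower, against 1.76% and 1.92% of tested genes. Without DMSO culture 2, or without rapamycin culture 2, none of the 9 reached that level. Without DMSO culture 1, 3 of the 9 did: GRB2 higher, and EGFR (−0.65) and ERBB2 (−1.16) lower. The RF groups did not overlap for 1 gene upward (GRB2) and 1 downward (MET), against 5.24% and 4.21% of tested genes. RF changes of EGFR and MET were −0.43 each, with 95% intervals of −1.01 to 0.15 and −1.07 to 0.20.

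Total RNA varied little for most of the family. Changes were between −0.05 and 0.28 on the log2 scale, with a median of 0.07 against 0.01 over all tested genes. IRS2 was the 1 tested gene whose groups did not overlap, at 8.41, 7.85 and 7.67 CPM in DMSO against 8.88, 10.1 and 9.52 CPM in rapamycin. Its change was 0.25 (SE 0.07, 95% interval 0.09 to 0.41, adjusted p = 0.766, edgeR), and 0.20 to 0.29 with 1 culture left out or 0.31 without the RNA libraries of DMSO cultures 1 and 2. On the log2(FPKM + 1) scale limma-trend gave 0.10 and on the log2(FPKM + 0.1) scale 0.17, both without an unadjusted p under 0.05. So 1 of 9 genes was higher and 0 lower at an unadjusted p of 0.05, against 3.32% and 2.51% of tested genes. The groups did not overlap upward for 1 of 9 and downward for 0 of 9, against 8.22% and 6.61%. In FPKM it was 1 of 9 in each direction, IRS2 upward and AXL downward, against 5.93% and 6.82%. AXL had 83.5 to 86.7 FPKM in DMSO and 80.5 to 83.1 FPKM in rapamycin. EGFR and IGF1R stood apart in 1 library only. Rapamycin culture 2 had 529 CPM of EGFR and 119 CPM of IGF1R, where the other 5 libraries had 408 to 444 and 78.9 to 83.0 CPM. Without that culture their changes of 0.10 and 0.18 were −0.0016 and −0.028.

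**Figure D5:**
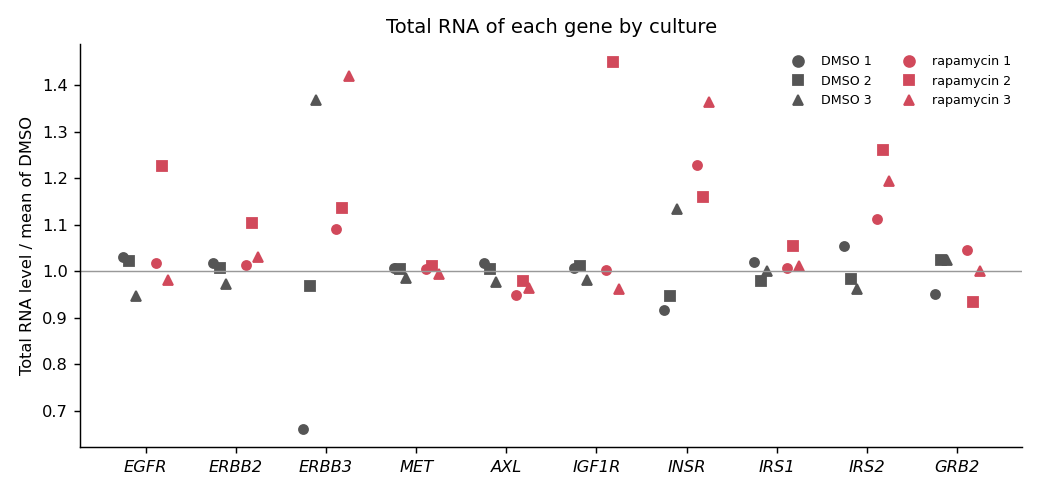
Total RNA (CPM) of each gene in each culture, divided by the mean of its 3 DMSO cultures. Rapamycin culture 2 lies apart from the other 5 for IGF1R and EGFR, and IRS2 is the one tested gene whose 3 rapamycin cultures all lie above its 3 DMSO cultures.

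The isoforms behind these levels were estimated by the authors in total RNA only, so the RF cannot be divided among them. A single coding isoform held most of the FPKM of EGFR (EGFR-201, 84.1 to 90.3% over the 6 libraries), MET (MET-202, 84.3 to 88.3%) and IRS1 (IRS1-201, 78.6 to 86.7%). IRS2 had 1 isoform. AXL was split between AXL-201 (61.5 to 65.8%) and AXL-202 (33.4 to 37.1%). GRB2 was split between GRB2-202, GRB2-205 and GRB2-210, with mean shares of 26.4%, 27.3% and 21.5% in DMSO and 31.6%, 23.9% and 25.3% in rapamycin, and overlapping ranges for each. For IGF1R the isoform with the highest share among those matched was a retained intron form, IGF1R-208 (27.8 to 35.6%).

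Around these genes, the wider pathway gave no call in edgeR's TE test. The lists' counts at an unadjusted p of 0.05 stand against 6.17% of all tested genes higher and 6.42% lower. Their counts of genes lower and higher at any p stand against 53.7% of all tested genes lower. DESeq2's Wald test called 9 genes of these lists at an adjusted p of 0.05, against 5.02% of all genes higher and 4.4% lower. Higher were AREG, GRB10, GAB2, SOCS3 and PTPN1, and lower were MERTK, SOS1, CBLB and PTPN2 (PTPN1 is named after its values were seen), with adjusted p from 0.000983 (PTPN1) to 0.0498 (AREG). In RF alone DESeq2 called none of the genes in these lists. Of 13 ligand genes 9 were tested, and 5 were lower and 4 higher. PANC-1 RNA held HBEGF (18.1 to 19.5 FPKM), NRG1 (14.9 to 17.6), EREG (14.2 to 15.5) and the AXL ligand GAS6 (3.84 to 4.44). RNA of the MET ligand HGF (0.307 to 0.535 FPKM), IGF1 (0 to 0.124) and IGF2 (0.327 to 0.492) was low. Among the ligands, 1 was lower and 1 higher at an unadjusted p of 0.05: EGF (0, 20 and 3 RF reads in DMSO, 3, 1 and 0 in rapamycin) and AREG (0, 2 and 0 against 10, 2 and 2). EGF had most of its reads in DMSO culture 2. AREG had 0, 2.51 and 0 CPM of RF against 8.29, 2.42 and 6.65 CPM, and these groups overlapped. Only its rapamycin culture 1 held more than the 3 counts of the detection limit. The TE groups did not overlap for AREG or for EGF, but both genes had libraries with 0 reads. At so few reads a culture's log2 TE rests largely on the prior count of 2 that enters it.

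Of 15 other receptor kinases 12 were tested, 6 lower and 6 higher, and 1 was lower at an unadjusted p of 0.05. That was MERTK, a relative of AXL, with 2, 11 and 20 RF reads in DMSO and 0, 5 and 0 in rapamycin (TE change −2.58, SE 0.80, adjusted p = 0.238, edgeR). Its change was −1.51 without rapamycin culture 1, and without rapamycin culture 2 no reads were left in rapamycin. EPHA2 had the highest RNA of these kinases, 113 to 119 FPKM.

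Adaptors and exchange factors beyond IRS1, IRS2 and GRB2 mostly had higher fitted TE without passing the test. Of 17 genes 13 were tested, 10 higher and 3 lower, with a median of 0.49 against −0.06 over all tested genes. At an unadjusted p of 0.05, 3 were higher and 1 lower. GRB10, an adaptor that restrains the insulin and IGF1 receptors, had 3, 1 and 7 RF reads in DMSO and 16, 16 and 4 in rapamycin, or 9.23, 1.26 and 4.76 CPM against 13.3, 19.4 and 13.3 CPM. The groups did not overlap, and its TE change was 1.80 (SE 0.51, adjusted p = 0.231, edgeR). GAB2, a docking protein bound by GRB2, had a TE change of 2.63 (SE 0.90, adjusted p = 0.265) from 2, 0 and 2 RF reads against 17, 4 and 2, and 1.70 without rapamycin culture 1. The SH2 and SH3 adaptor NCK1 was at 1.31 (SE 0.57, adjusted p = 0.36), with overlapping groups, and at 0.77 without rapamycin culture 2 and 0.86 without DMSO culture 2. SOS1, the RAS exchange factor that GRB2 carries, differed the other way: 61.5, 30.2 and 24.5 CPM of RF in DMSO against 14.1, 16.9 and 19.96 CPM in rapamycin, a TE change of −1.13 (SE 0.45, adjusted p = 0.33) with groups that did not overlap.

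Among 19 negative regulators 18 were tested, 11 lower and 7 higher. Those at an unadjusted p of 0.05 were the ubiquitin ligase CBLB (2, 13 and 4 RF reads in DMSO, 0, 1 and 0 in rapamycin) and the phosphatase PTPN2 (13, 35 and 41 against 26, 8 and 1), both lower, and SOCS3, which was higher (TE change 0.67, SE 0.31, adjusted p = 0.395, edgeR). Of 8 IGF-binding genes, all tested, 5 were lower and 3 higher, with IGFBP3 and IGFBP5 lower at an unadjusted p of 0.05. IGFBP3 had 88, 1978 and 500 RF reads in DMSO and 351, 149 and 50 in rapamycin, so that DMSO culture 2, at 2486 CPM against 166 to 340 CPM in the other 5, set the difference. IGFBP5 had 5, 23 and 7 reads against 4, 5 and 2.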

How the data were processed

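RF and total RNA libraries of 6 PANC-1 cultures were analysed, grouped by their labels. The authors deposited raw counts per protein-coding gene, from exonic reads that aligned at 1 place (HISAT2 and featureCounts per the labels, GRCh37, versions not given in the sources used here). The authors deposited FPKM of genes and isoforms for total RNA, made with Cuffnorm of Cufflinks 2.2.1 per the submitters' processing notes. Further columns of the count table hold the authors' TE per treatment, its log2 fold change, p-values and adjusted p-values, and a column named fpkm that equals the mean of the DMSO RNA counts. None of these was used.

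Genes with at least 10 counts in RF and 10 in total RNA, summed over libraries, were tested (13329 of 20212). Libraries were scaled by TMM within each type and fitted with edgeR 4.0.16 (quasi-likelihood, Benjamini-Hochberg over all genes, R 4.3.3). TE change was the library type by treatment term over 12 libraries. RF and total RNA changes were fitted on their own 6 libraries. The TE model has 1 dispersion per gene for both types (overall coefficient of variation 24.4%), between those of RF and total RNA. On simulated data, genes with no change passed an unadjusted TE p of 0.05 more often than that level, so TE standard errors, intervals and unadjusted p-values are too small. DESeq2's TE fit also has 1 dispersion per gene for both types, and was not simulated. Its SE for GRB2 and MET was smaller in TE than in RF alone. A prior count of 2 entered each culture's log2 TE. Per-length RF levels used the annotation's coding length (GENCODE on GRCh37, 19545 of 20212 genes matched by identifier). That annotation's version differs from the authors'. Genes of the wider lists were named when their unadjusted TE p was under 0.05, at most 3 per direction and list. Of 102 genes in all lists, 101 were matched, all but PECAM1.

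Alternatives used DESeq2 1.42.0, limma 3.58.1, other scalings, filters (none or 50 counts), pseudocounts (0.1 and 1 FPKM) and prior counts (0.5 and 5), replicate blocks, and each culture left out. Leaving out 2 DMSO RNA libraries was added after seeing the data. The genes and lists were chosen with earlier results of these data known.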

Additional observations from a re-analysis of the deposited data

How the results depend on the processing

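Over 134 alternative values of the 9 genes' TE change, 124 kept direction and side of the threshold, 2 passed it (GRB2 and MET by DESeq2) and 8 changed sign. In RF 92 of 98 and in total RNA 121 of 132 stayed the same and the rest changed sign. With prior counts of 0.5 and 5, differences in log2 TE per culture of 0.05 for IRS1 and 0.07 for INSR became 0.18 and 0.53, and −0.05 and −0.12. For ERBB3 the difference per culture was −0.26, against a fitted TE change of 0.95, and for IRS1 the fitted change was −0.26. With DESeq2, 586 genes were called lower and 669 higher in TE, with 2 of the 9 among them, 1 and 4 in RF, and 4 and 25 in total RNA. Leaving out 1 culture gave 0 to 374 genes lower and 0 to 70 higher in TE (374 and 70 without DMSO replicate 3), 0 to 1 and 0 to 6 in RF, and 0 to 6 and 0 to 875 in total RNA (6 and 875 without DMSO replicate 3), with 0 of the 9 called. With no count filter, RF called 10 lower and 10 higher. limma-trend on FPKM called 1 gene higher in total RNA. The cause was not tested.

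TE changes that turned sign were those of ERBB3 (−0.034 with the replicate block by number, −1.27 to 1.46 with 1 culture left out, below 0 without rapamycin replicate 1), IRS1 (0.22 with limma voom, −0.71 to 0.25 with 1 culture left out, above 0 without DMSO or rapamycin replicate 1), IGF1R (−0.42 to 0.83, below 0 without DMSO replicate 2 or rapamycin replicate 3) and AXL (−0.56 to 0.12, above 0 without DMSO replicate 3). In RF they were IRS1 (0.036 with the block by number, −0.91 to 0.45 with 1 culture left out), IRS2 (−1.11 to 0.14), AXL (−0.54 to 0.068), ERBB3 (−0.93 to 1.33) and IGF1R (−0.092 to 1.11). In total RNA, with 1 culture left out, MET ran from −0.0064 to 0.011, GRB2 from −0.053 to 0.033, EGFR from −0.0016 to 0.17 and IGF1R from −0.028 to 0.29. MET was also at −0.011 with no filter, GRB2 at 0.0018 with at least 50 counts and ERBB3 at −0.17 without the RNA libraries of DMSO replicates 1 and 2.

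Replicate numbers gave no sign of pairing across treatments, but the check could not decide this. Same-numbered samples across treatments correlated at −0.22 to −0.06 in their deviations from the group means. The RF and RNA libraries taken as 1 culture, since their labels share a treatment and number, gave only −0.096 to 0.0081. A pairing assumed from the labels was thus not seen by this measure. A replicate block by number called 0 genes lower and 1 higher in TE, and 2 and 4 in RF. A block by culture called 0 in TE, and neither block called any of the 9 genes. RF depth limits the rarer genes: 5 of the 10 genes had under 150 RF reads over all 6 libraries.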
